A study of Mus musculus with 24 samples.

Results

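Guanylin-expressing cells of the mouse intestine were examined for 56 genes that drive the copying of DNA and the division of the cell. The genes were listed by name and role, with earlier results of these data known, as 26 replication genes (origin licensing, the replicative helicase, deoxynucleotide supply, S phase entry and its checkpoint) and 30 mitosis genes (mitotic cyclins, kinases, spindle, centromere and cytokinesis), out of 53465 genes in the count table. RNA had been sequenced from sorted epithelial cells of the Guca2a-Venus strain, a line from 1 founder that carries a bacterial artificial chromosome in which the yellow fluorescent protein Venus replaces the coding part of *Guca2a*, the gene of proguanylin. The line was made in ova of C57Bl6J and CBA hybrids and crossed back to C57Bl6J for a number of generations that varied between animals. Cells were taken from duodenum, jejunum, ileum and colon of mice on standard chow and a light and dark cycle, with no further treatment. They were sorted by Venus signal into bright cells (positive) and cells without it (negative). The gates left out leukocytes stained for CD45, debris with no DNA signal and cells that were not alive. Each of the 8 groups of region and sort had 3 libraries. The design text speaks of 3 mice but the labels tie no library to a mouse. The p values thus rest on the spread between libraries of the same group, estimated over all 8 groups together.

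In the intestinal epithelium, cells divide in the crypts, where stem cells and transit-amplifying cells cycle fast, and stop dividing as they differentiate into enterocytes, goblet cells and the other mature types. Before S phase, ORC, *Cdc6* and *Cdt1* load the MCM helicase onto origins, E2F factors and cyclin E with *Cdk2* then switch on the genes of DNA synthesis, and *Cdk1* with the A and B cyclins later drives mitosis, in which *Plk1*, the Aurora kinases and the spindle checkpoint oversee the separation of chromosomes. Genes of the first wave are classic targets of E2F, whereas many genes of the second wave are repressed in resting cells through a CHR element (cell cycle genes homology region), often beside CCAAT boxes.

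Between 7458616 and 23063124 reads per library fell on genes, with a median of 15379490, and the positive cells of the duodenum were the shallowest group. Mitochondrial genes took 32.3% to 80.7% of these reads. Levels are given in CPM (counts per 1000000 reads of the TMM-scaled library size), and 3 counts, taken as the floor of detection, were worth 0.130 to 0.402 CPM, a floor that covers counting error only. All 56 genes passed the filter on low counts, and between 1358 and 30782 reads of a library fell on them. *Guca2a* itself checked the sort: positive cells averaged 285 (duodenum), 153 (jejunum), 191 (ileum) and 612 CPM (colon), against 5.28, 24.5, 26.2 and 94.8 CPM in negative cells. Replicate 3 stood apart from its group in positive jejunal cells, with a mean log2 CPM over the mitosis genes of 0.96 against -0.64 and -1.18, and in positive duodenal cells, with 2.81 over the replication genes against 1.92 and 1.72. Without the positive duodenal replicate 3, 19 replication and 9 mitosis genes were lower in the duodenum in place of 15 and 8.

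The 2 lists differed in promoter sequence, a property not used to draw them up. RefSeq windows of GRCm38.p6, 300 bases long from 250 before to 50 after a start site, were given for 46 of the 56 genes (51 windows). Words of 3 kinds were searched on both strands: an E2F-type word (TTCCCGC or TTCGCGC or TTGCCGC or TTGGCGC), a CHR word (TTTGAA or TTCGAA) and CCAAT. Of the 38 E2F-type words found, 6 shared bases with a word of another kind. An E2F-type word stood in 17 of 25 replication windows (68.0%) and in 6 of 26 mitosis windows (23.1%), against 9.57% of all 32851 windows and 16.0% of the windows of genes tested here. The CHR word showed the opposite distribution, with 21 of 26 mitosis windows (80.8%), 5 of 25 replication windows (20.0%), 19.2% of all windows and 14.2% of those of genes tested. All 21 mitosis and all 5 replication windows with a CHR word also held CCAAT, a pair that was found in 7.52% of all windows, and CCAAT by itself stood in 68.0% of replication, 88.5% of mitosis and 37.4% of all windows. The CHR word nearest to the start site lay within 50 bases of it in 20 of these 21 windows (95.2%), with a median distance of 16 bases. This was so in 3 of the 5 replication windows, with a median of 31 bases, and in 27.6% of all windows that held the word, with a median of 116 bases. Such a match is a description of the letters and not of binding.

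The following stretches, from 170 bases before to 30 after the start site and read 5′ to 3′ along the gene, show this contrast, with all 3 kinds of word in capitals, which run together where words overlap. *Mcm6* (chr1:128359676-128359875, minus strand), *Mcm5* (chr8:75109339-75109538, plus strand) and *Hells* (chr19:38930820-38931019, plus strand) were taken as replication genes with several E2F-type words. *Ccnb2* (chr9:70421525-70421724, minus strand), *Cdc20* (chr4:118437314-118437513, minus strand) and *Top2a* (chr11:99024160-99024359, minus strand) were taken as mitosis genes with CHR and CCAAT words and no E2F-type word, and *Cdk1* (chr10:69352883-69353082, minus strand) as one with all 3 kinds.
Mcm6: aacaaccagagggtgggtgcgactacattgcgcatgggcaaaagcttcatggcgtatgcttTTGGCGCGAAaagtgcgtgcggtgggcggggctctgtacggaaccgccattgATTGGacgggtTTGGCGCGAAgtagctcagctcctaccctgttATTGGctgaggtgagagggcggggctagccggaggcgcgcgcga
Mcm5: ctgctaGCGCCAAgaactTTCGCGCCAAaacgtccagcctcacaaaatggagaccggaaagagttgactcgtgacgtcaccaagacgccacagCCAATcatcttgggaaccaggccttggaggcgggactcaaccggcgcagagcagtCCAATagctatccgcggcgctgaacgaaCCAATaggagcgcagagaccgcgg
Hells: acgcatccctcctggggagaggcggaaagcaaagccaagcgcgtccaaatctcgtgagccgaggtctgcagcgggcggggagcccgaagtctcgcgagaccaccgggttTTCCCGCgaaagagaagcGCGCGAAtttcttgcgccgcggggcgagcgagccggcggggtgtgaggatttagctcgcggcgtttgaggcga
Ccnb2: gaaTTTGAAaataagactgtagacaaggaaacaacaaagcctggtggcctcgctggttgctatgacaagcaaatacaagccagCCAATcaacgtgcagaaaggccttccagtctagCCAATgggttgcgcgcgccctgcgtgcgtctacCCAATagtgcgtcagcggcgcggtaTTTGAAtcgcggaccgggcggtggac
Cdc20: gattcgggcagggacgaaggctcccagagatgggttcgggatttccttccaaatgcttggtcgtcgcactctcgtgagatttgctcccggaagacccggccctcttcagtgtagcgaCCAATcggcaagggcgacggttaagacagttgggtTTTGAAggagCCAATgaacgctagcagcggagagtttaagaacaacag
Top2a: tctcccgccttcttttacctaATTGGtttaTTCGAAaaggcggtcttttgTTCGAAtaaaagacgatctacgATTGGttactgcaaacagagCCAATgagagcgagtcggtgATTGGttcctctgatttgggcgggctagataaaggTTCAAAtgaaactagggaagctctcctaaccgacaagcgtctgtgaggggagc
Cdk1: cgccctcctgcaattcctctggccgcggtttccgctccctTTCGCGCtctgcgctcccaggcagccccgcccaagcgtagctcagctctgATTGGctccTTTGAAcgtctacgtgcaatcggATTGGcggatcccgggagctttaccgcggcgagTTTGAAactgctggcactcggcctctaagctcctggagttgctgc
In the *Mcm6* stretch 4 E2F-type words and 2 CCAAT words were counted, in that of *Mcm5* 3 and 3, and in that of *Hells* 2 E2F-type words alone. The stretch of *Ccnb2* held 2 CHR and 3 CCAAT words, that of *Cdc20* 1 and 2, that of *Top2a* 3 and 4, and that of *Cdk1* 2 and 2 beside 1 E2F-type word.

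Whether Venus-positive cells carried less of the division machinery than their neighbours was asked within each region. They did in every region, but to very different extents. In the jejunum and ileum nearly the whole set was lower in positive cells, 53 and 54 of 56 genes, with a median log2 fold change of -3.67 and -2.94, or 12.8-fold and 7.70-fold lower. In the duodenum 23 and in the colon 25 of 56 genes were lower, with medians of -1.22 and -1.38 (2.34-fold and 2.61-fold lower), and none of the 56 was higher in any region (edgeR quasi-likelihood test, adjusted p under 0.05 over 15044 genes), nor with DESeq2 or at an unadjusted p under 0.05. Among all genes tested, 25.6% (jejunum), 20.6% (ileum), 8.08% (duodenum) and 3.80% (colon) were lower, and the median gene changed by -0.28, -0.27, -0.16 and 0.00. With DESeq2, 28 (duodenum), 53 (jejunum), 54 (ileum) and 36 (colon) of the 56 were lower, against 1534, 3860, 3349 and 1118 of 15044. Fitting each region alone gave 34, 53, 55 and 32, against 1426 of 11711, 3007 of 12059, 2849 of 12613 and 776 of 12060. Scaling by library size alone gave 5, 53, 53 and 25, against 350, 2943, 2912 and 507 of 15044. The 3 positive libraries all lay below the 3 negative libraries for 54 (jejunum), 55 (ileum), 46 (duodenum) and 42 (colon) genes, against 29.9%, 30.1%, 21.0% and 11.9% of all genes tested. Of the 26 replication genes these were 24, 25, 20 and 21, and of the 30 mitosis genes 30, 30, 26 and 21, in the same order. As these are sorted pools, fewer dividing cells and less RNA per cell cannot be told apart.

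**Figure D1:**
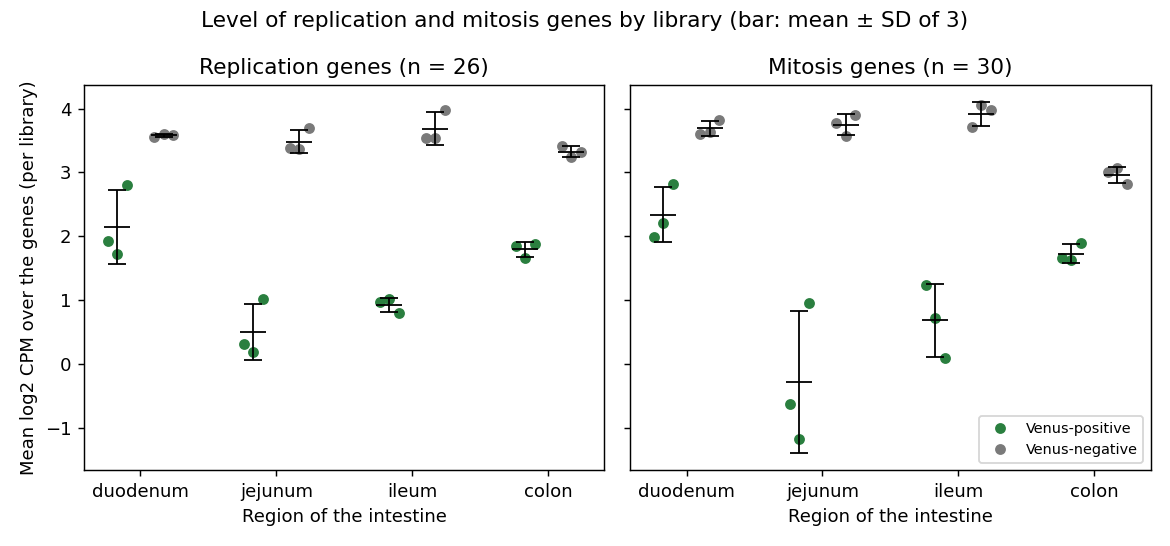
Mean log2 CPM over the 26 replication genes (left) and the 30 mitosis genes (right) in each of the 24 libraries, by region and sort, with the mean and SD of each group of 3. Negative libraries lie between 2.83 and 4.06 throughout, whereas positive libraries of the jejunum and ileum lie below those of the duodenum and colon.

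Split into the lists, 15, 23, 24 and 15 of the 26 replication genes were lower in duodenum, jejunum, ileum and colon, with medians of -1.37, -2.89, -2.85 and -1.64. For the mitosis list the numbers were 8, 30, 30 and 10 of 30, with medians of -1.11, -3.82, -3.06 and -1.28. Thus the mitosis genes had the larger median fall in the jejunum and ileum and the smaller one in the duodenum and colon. The duodenal counts moved with single libraries: without positive replicate 1 they were 5 replication and 4 mitosis genes, without positive replicate 2 the replication genes numbered 7, and without negative replicate 2 or 3 the mitosis genes numbered 5 or 4. With the i5 sequencing index as a covariate, 19 replication and 11 mitosis genes passed in the duodenum and 16 and 11 in the colon. When the duodenal libraries were fitted alone, 16 mitosis genes passed, and with scaling by library size alone, which moved the median of all genes from -0.16 to 0.27, 3 replication and 2 mitosis genes did. In the colon the mitosis genes numbered 3 without positive replicate 1, 4 without positive replicate 2 and 17 with DESeq2. In all 4 regions 13 genes passed, namely *Mcm2*, *Mcm3*, *Mcm6*, *Mcm7*, *Cdc45*, *Gins2*, *Tyms*, *Pcna*, *Ccna2*, *Ccnb2*, *Cdk1*, *Cenpa* and *Mki67*. With each library left out in turn, 52 of 53 calls in the jejunum and 50 of 54 in the ileum never failed, the others being *Chek1* in the jejunum and *E2f1*, *E2f2*, *Ccne1* and *Bub1* in the ileum. In the duodenum this held for 8 of 23, namely *Mcm7*, *Cdc45*, *Gins1*, *Tyms*, *Pcna*, *Ccnb2*, *Cenpe* and *Mki67*, and 14 calls failed without positive replicate 1. In the colon it held for 12 of 25, namely *Mcm2*, *Mcm3*, *Mcm5*, *Mcm6*, *Mcm7*, *Cdt1*, *Rrm1*, *Tyms*, *Pcna*, *Hells*, *Cenpa* and *Ect2*, and 10 calls failed without positive replicate 1. Another 22 genes passed by edgeR in both jejunum and ileum but not elsewhere. Of these, *Uhrf1*, *E2f1*, *Aurkb*, *Ttk*, *Birc5*, *Tpx2* and *Prc1* passed with DESeq2 in the colon too. *Bub1*, *Prc1* and *Hmmr* did so in the duodenum. *Cdc6* and *Ccne2* passed by edgeR in the duodenum alone (with DESeq2 *Ccne2* also in the colon). Passing in some regions and not in others is not a test of a difference between them.

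**Figure D2:**
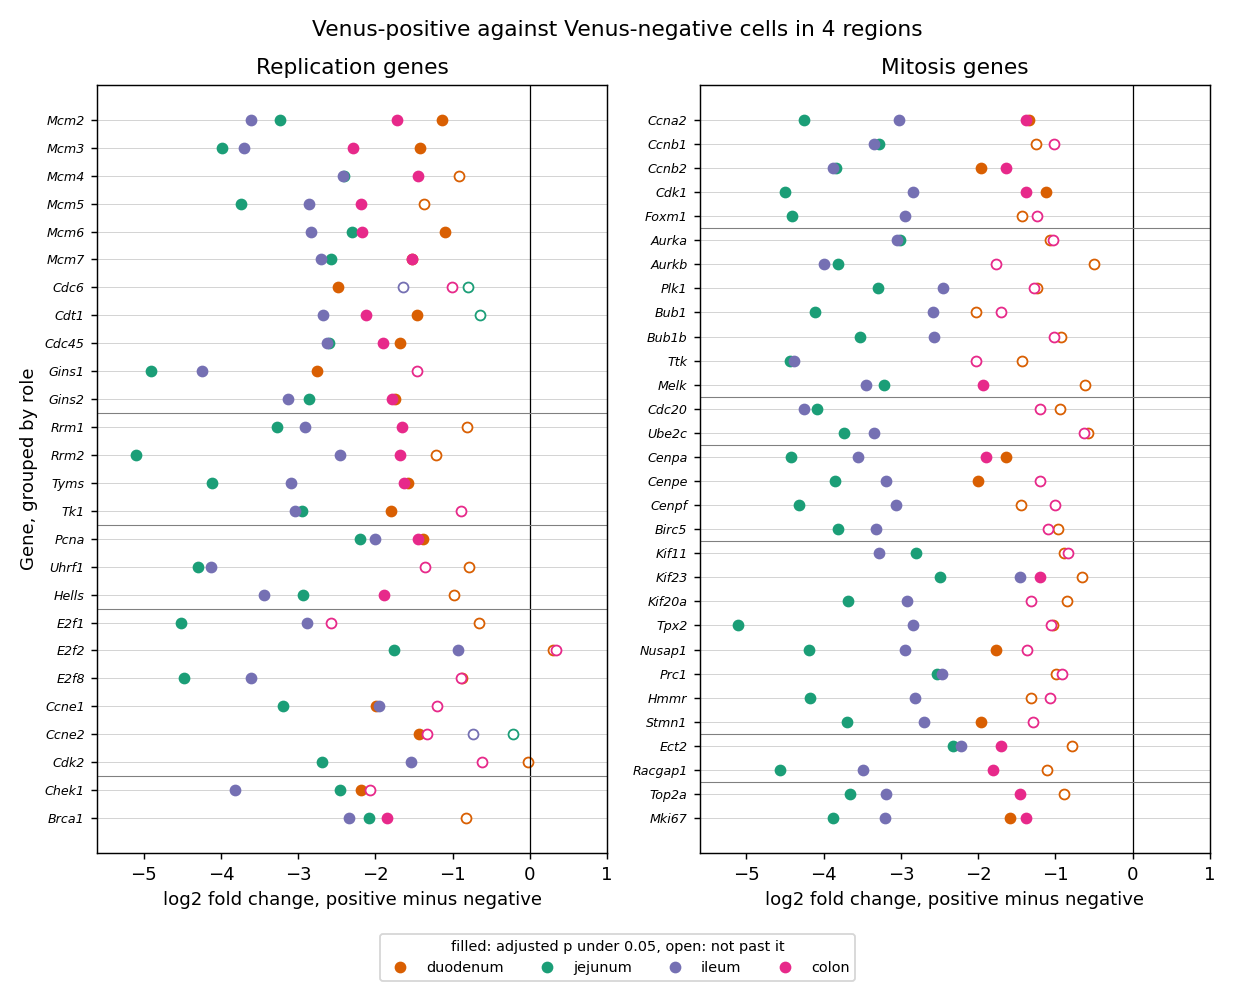
The log2 fold change between positive and negative cells (horizontal axis) for each of the 56 genes, replication genes on the left and mitosis genes on the right, ordered by role, with one point per region and filled points for an adjusted p under 0.05. The jejunum and ileum lie to the left of the duodenum and colon for most genes, with *Cdc6*, *Cdt1* and *Ccne2* among the exceptions.

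The helicase and the factors that load it had 9 of 11 genes lower in each of duodenum, jejunum and colon and 10 in the ileum, where 8.08%, 25.6%, 3.80% and 20.6% of all genes tested were. Of the 9 duodenal calls 3 held without positive replicate 1, namely *Mcm7*, *Cdc45* and *Gins1*, and 5 without positive replicate 2. *Mcm3*, a subunit of the MCM ring, was at 1.28, 1.17 and 3.35 CPM in positive and 27.1, 30.8 and 33.4 CPM in negative jejunal cells, a log2 change of -3.99 ± 0.40 (SE; 15.9-fold lower; edgeR adjusted p = 4.11e-08). The ileum gave 3.23, 2.58 and 1.91 against 34.7, 30.0 and 36.5 CPM (13.0-fold lower; edgeR adjusted p = 5.05e-08). In the duodenum positive cells held 4.92, 9.52 and 19.7 CPM against 28.5, 31.8 and 30.9, which was 2.68-fold lower (edgeR adjusted p = 0.00595). The negative libraries of these 3 regions overlapped one another, while the positive libraries of the duodenum lay above all those of the jejunum and ileum. Colonic cells held 8.04, 7.50 and 9.68 and 44.0, 39.6 and 39.9 CPM (4.89-fold lower; edgeR adjusted p = 6.75e-05), again without overlap.

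*Mcm6*, the subunit with the highest level per kilobase of exon in positive duodenal cells (4.00 CPM per kb), fell 7.14-fold in ileal, 4.95-fold in jejunal, 4.51-fold in colonic and 2.14-fold in duodenal cells. *Mcm2*, *Mcm4*, *Mcm5* and *Mcm7* fell by between 2.41 and 3.74 on the log2 scale in the jejunum and by 2.42 to 3.61 in the ileum. *Mcm4* and *Mcm5* did not pass in the duodenum (-0.92 and -1.37; edgeR adjusted p = 0.134 and 0.0683), where replicate 3 of the positive cells was the highest of its group for all 6 MCM genes and, for *Mcm2*, at 16.5 CPM above the lowest negative library at 15.4 CPM. *Cdc45* and the GINS subunits *Gins1* and *Gins2*, which join MCM to form the active helicase, were lower in jejunum and ileum too. *Gins1* had 2, 1 and 3 counts in the positive jejunal libraries, at or under the floor, against 2.96, 5.60 and 3.75 CPM in negative cells (edgeR adjusted p = 1.34e-05), while in the colon, with 2.01, 0.708 and 1.42 CPM in positive and 3.72, 3.15 and 4.59 CPM in negative cells, it did not pass (edgeR adjusted p = 0.132). Exons of *Gse1* on the opposite strand cover 67.3% of the exons of *Gins2*, and the strand setting of the counting is not given in the sources used here, so its values are uncertain.

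The licensing factors were *Cdc6* and *Cdt1*. *Cdc6* was at 1.02, 0.0821 and 1.46 CPM in positive and 4.49, 7.72 and 1.87 CPM in negative cells of the duodenum, 5.60-fold lower (edgeR adjusted p = 0.0254). In the jejunum it was at 1.21, 4.24 and 0.438 against 3.64, 3.41 and 3.33 CPM, with overlapping groups (-0.80 ± 0.71; edgeR adjusted p = 0.374). It passed in neither the ileum nor the colon. *Cdt1*, its partner in loading MCM, was 6.40-fold lower in the ileum and 4.35-fold lower in the colon, and 2.76-fold lower in the duodenum (edgeR adjusted p = 0.0262), while in the jejunum it stood at 3.64, 3.40 and 2.84 CPM against 4.78, 4.63 and 6.05 CPM (edgeR adjusted p = 0.247). Its positive jejunal libraries were above the mean of the positive ileal cells (1.82 CPM), while its negative jejunal libraries were the lowest of the 4 regions.

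Genes of deoxynucleotide supply had the lowest jejunal median of the replication roles, -3.70 over 4 genes, all past the test there and in the ileum. *Rrm2*, the regulated subunit of ribonucleotide reductase, was at 0.383, 0 and 0.656 CPM in positive jejunal cells and 10.8, 8.81 and 15.2 CPM in negative ones, a log2 change of -5.11 ± 0.60 (edgeR adjusted p = 1.96e-07). In the duodenum it was at 5.12, 4.19 and 8.89 against 11.2, 14.1 and 16.9 CPM, without overlap but short of the threshold by edgeR (-1.22 ± 0.48; edgeR adjusted p = 0.0746). *Tyms*, thymidylate synthase, passed in all regions, and was 17.4-fold (jejunum), 8.54-fold (ileum), 3.08-fold (colon) and 2.99-fold (duodenum) lower. *Tk1*, which salvages thymidine, did not pass in the colon (-0.89 ± 0.49; edgeR adjusted p = 0.248), and *Rrm1*, the large reductase subunit, did not pass in the duodenum (-0.81 ± 0.37; edgeR adjusted p = 0.136).

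Of the genes that act at and behind the fork, *Pcna*, the sliding clamp of the polymerases, had the smallest fall in the jejunum (4.59-fold) and ileum (4.02-fold) and was still 2.60-fold lower in the duodenum and 2.72-fold lower in the colon. *Uhrf1*, which carries DNA methylation to the new strand, had one of the widest contrasts between regions. It stood at 0.767, 0.279 and 1.02 CPM in positive and 14.4, 12.7 and 13.1 CPM in negative jejunal cells (19.7-fold lower; edgeR adjusted p = 1.03e-06). Positive duodenal libraries were at 1.84, 5.58 and 14.5 CPM, the last of them within the negative range of 13.5, 9.53 and 14.6 CPM (-0.78 ± 0.48; edgeR adjusted p = 0.277). *Hells*, a chromatin remodeller, was 7.63-fold and 10.9-fold lower in jejunum and ileum and 3.69-fold lower in the colon.

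Among the regulators of S phase entry, none of the 6 genes passed in the colon by edgeR, where 3 had an unadjusted p under 0.05 and 2 passed with DESeq2, and 2 passed in the duodenum. *E2f2*, an activating E2F, was at 18.7, 11.9 and 15.1 CPM in positive and 12.6, 15.2 and 9.37 CPM in negative duodenal cells, and at 3.55, 4.11 and 5.29 and 3.48, 4.39 and 2.38 CPM in the colon, so that the groups overlapped in both regions (log2 change 0.30 ± 0.36 and 0.34 ± 0.39; edgeR adjusted p = 0.619 and 0.633). In the jejunum it was 3.40-fold lower and in the ileum 1.90-fold lower. The ileal call was close to the threshold (edgeR adjusted p = 0.0469) and held in 9 of 24 fits with a library left out, with adjusted p from 0.0393 to 0.196. *Cdk2*, the kinase of cyclin E, was at 7.27, 7.72 and 7.43 against 8.42, 6.22 and 8.07 CPM in the duodenum (-0.02 ± 0.36, and 0.41 when scaled by library size alone), with overlapping groups, while it was 6.45-fold lower in the jejunum (edgeR adjusted p = 2.29e-06) and 2.91-fold lower in the ileum. *E2f8*, a repressor E2F made in S phase, was 22.3-fold lower in the jejunum and passed in neither duodenum nor colon. *E2f1*, the founding activator, was at 0, 0.0558 and 0.292 CPM in positive and 1.52, 5.15 and 1.39 CPM in negative jejunal cells (-4.52 ± 1.14; edgeR adjusted p = 0.00187), and in the colon at 0.927, 0.779 and 0.129 against 4.91, 4.39 and 1.62 CPM (edgeR adjusted p = 0.0797).

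The 2 E cyclins differed from each other. *Ccne1* was lower in the duodenum, jejunum and ileum (-1.99, -3.20 and -1.95), whereas *Ccne2* was at 17.5, 7.25 and 10.2 CPM in positive against 12.9, 11.1 and 16.6 CPM in negative jejunal cells, with overlapping groups (-0.21 ± 0.43; edgeR adjusted p = 0.721; 0.12 when scaled by library size alone). Per kilobase of exon, *Ccne2* had the highest level of the 56 genes in positive cells of the jejunum (3.34 CPM per kb) and of the ileum (1.72). In the duodenum it was 2.70-fold lower, with 5.12, 5.75 and 5.29 against 12.2, 14.5 and 16.9 CPM (edgeR adjusted p = 0.0276). Exons of *Ints8* on the opposite strand cover 17.4% of its exons. *Chek1*, the checkpoint kinase of stalled forks, was lower in the duodenum, jejunum and ileum, and *Brca1*, of homologous recombination, in the jejunum, ileum and colon.

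**Figure D3:**
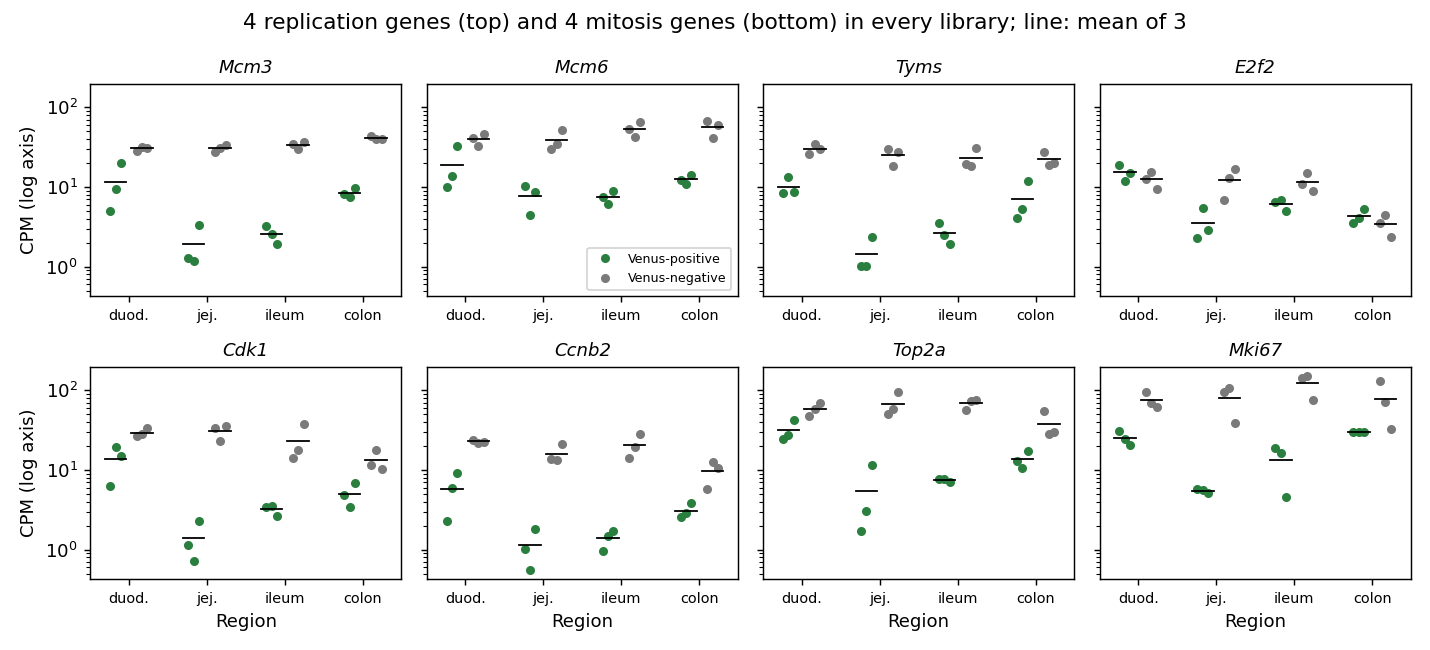
CPM on a log axis in every library for 4 replication genes (*Mcm3*, *Mcm6*, *Tyms*, *E2f2*) and 4 mitosis genes (*Cdk1*, *Ccnb2*, *Top2a*, *Mki67*), positive cells in green and negative cells in grey, with a line at the mean of 3. For *Mcm3*, *Tyms*, *Cdk1*, *Ccnb2*, *Top2a* and *Mki67* the positive duodenal libraries lie above all positive jejunal and below all negative duodenal ones, whereas for *E2f2* positive and negative libraries overlap in the duodenum and colon.

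Among the mitotic cyclins and their partners, all 5 genes were lower in jejunum and ileum and 3, *Ccna2*, *Ccnb2* and *Cdk1*, in each of duodenum and colon. Of the 3 colonic calls none held without positive replicate 1 and 1 without positive replicate 2 or negative replicate 2. Of the 3 duodenal ones 1 held without positive replicate 1, any one negative replicate, jejunum negative replicate 1 or colon positive replicate 2. *Cdk1*, the kinase that starts mitosis, was at 1.15, 0.725 and 2.26 CPM in positive and 33.8, 23.4 and 35.3 CPM in negative jejunal cells (22.6-fold lower; edgeR adjusted p = 4.37e-08). Positive duodenal cells held 6.35, 19.3 and 15.1 CPM against 26.4, 28.6 and 33.5 (2.17-fold lower; edgeR adjusted p = 0.0470). Each positive duodenal library was thus above all 6 positive libraries of jejunum and ileum, the highest of which was at 3.55 CPM. *Ccnb2*, a B cyclin, had the largest duodenal fall of these 5 genes, 3.91-fold, with 2.25, 5.99 and 9.23 against 23.9, 21.8 and 22.6 CPM (edgeR adjusted p = 0.00152), and was 14.3-fold lower in the jejunum and 14.8-fold in the ileum. *Foxm1*, the transcription factor of the G2 programme, was 21.3-fold lower in the jejunum and passed in neither duodenum nor colon (-1.43 and -1.23).

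The mitotic kinases and the spindle checkpoint (*Aurka*, *Aurkb*, *Plk1*, *Bub1*, *Bub1b*, *Ttk* and *Melk*) were lower throughout in jejunum and ileum, 7 of 7, at log2 changes of -2.46 to -4.43. In the duodenum none passed by edgeR, where 2 had an unadjusted p under 0.05 and 1 passed with DESeq2, although all 7 changes were below 0. In the colon *Melk* alone passed by edgeR (-1.94 ± 0.51; edgeR adjusted p = 0.0107), while 5 of the 7 had an unadjusted p under 0.05 and *Melk*, *Aurkb* and *Ttk* passed with DESeq2. *Aurkb*, the kinase of the passenger complex, showed the contrast: 0, 0 and 1.31 CPM in positive and 5.77, 2.06 and 9.80 CPM in negative jejunal cells. Its positive duodenal libraries, at 1.84, 5.01 and 5.40 CPM, overlapped the negative ones at 5.75, 4.02 and 7.50 CPM (-0.49 ± 0.71; edgeR adjusted p = 0.680). In the jejunum replicate 3 alone held any count.

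The anaphase-promoting complex, which triggers the separation of chromatids, works with *Cdc20* and *Ube2c*. *Cdc20*, its mitotic activator, was at 0.128, 0.725 and 1.31 against 10.1, 13.8 and 12.6 CPM in the jejunum and 1.18, 0 and 0.515 against 8.42, 14.8 and 10.4 CPM in the ileum (log2 change -4.08 and -4.26; edgeR adjusted p = 3.71e-05 and 3.26e-05). *Ube2c*, its ubiquitin-conjugating enzyme, fell 13.4-fold and 10.2-fold there. Neither passed by edgeR or DESeq2 in the duodenum or the colon, and neither had an unadjusted p under 0.05. *Ube2c* had the smallest difference of any mitosis gene in the colon, -0.63 ± 0.50, with 2.24, 2.62 and 5.62 CPM in positive and 3.00, 7.84 and 5.27 CPM in negative cells, which overlapped.

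At the centromere, *Cenpa*, the histone variant that marks it, passed in all 4 regions, at 21.5-fold (jejunum), 11.7-fold (ileum), 3.71-fold (colon) and 3.11-fold (duodenum) lower. *Cenpe*, the kinetochore motor, was 4.00-fold lower in the duodenum, while *Cenpf* and *Birc5* (survivin, of the passenger complex) passed by edgeR in jejunum and ileum alone. With DESeq2 *Cenpe* and *Birc5* passed in the colon too, at adjusted p = 0.0480 and 0.0207. Spindle proteins were lower in 8 of 8 cases in jejunum and ileum, with *Tpx2*, which nucleates spindle microtubules, at 0.128, 0.167 and 1.09 CPM in positive and 14.4, 14.8 and 17.1 CPM in negative jejunal cells (-5.11 ± 0.54; edgeR adjusted p = 4.92e-08). Of these 8, *Nusap1* and *Stmn1* passed by edgeR in the duodenum and *Kif23* in the colon, where with DESeq2 *Tpx2*, *Nusap1* and *Prc1* passed too. The motors *Kif11* and *Kif20a*, the midzone protein *Prc1* and *Hmmr* passed in neither region by edgeR. With DESeq2 *Prc1* and *Hmmr* also passed in the duodenum. Their duodenal values by edgeR ran from -1.31 (*Hmmr*) to -0.84 (*Kif20a*). The cytokinesis genes *Ect2* and *Racgap1* passed in jejunum, ileum and colon and, by edgeR and DESeq2, in none of 2 cases in the duodenum, although both had an unadjusted p under 0.05. Exons on the opposite strand cover 29.3% of the exons of *Kif20a* and 22.8% of those of *Ube2c*.

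*Mki67*, which coats mitotic chromosomes and serves as a marker of proliferation, passed in all 4 regions, and *Top2a*, the topoisomerase that untangles chromosomes, in all but the duodenum. *Mki67* was at 30.6, 24.1 and 20.6 CPM in positive and 96.4, 69.7 and 61.1 CPM in negative duodenal cells (3.01-fold lower; edgeR adjusted p = 0.0102). Its positive jejunal libraries were tight, at 5.75, 5.52 and 5.10 CPM, against 96.2, 106 and 38.7 (14.7-fold lower; edgeR adjusted p = 2.63e-07). Colonic cells held 30.1, 30.0 and 30.1 CPM in the positive and 131, 72.3 and 32.8 CPM in the negative sort, where the last negative library was barely above the positive ones (2.61-fold lower; edgeR adjusted p = 0.0275). *Top2a* was 12.7-fold lower in jejunal, 9.17-fold in ileal and 2.75-fold in colonic cells. In the duodenum, with 24.8, 27.2 and 42.9 against 47.8, 58.4 and 69.1 CPM, it did not overlap but missed the threshold (edgeR adjusted p = 0.130).

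To separate mitosis from replication without any scaling between libraries, the mean log2 CPM of the replication genes was subtracted from that of the mitosis genes within each library. Negative cells of the small intestine gave 0.11 ± 0.10 (SD, n = 3) for duodenum, 0.26 ± 0.11 for jejunum and 0.23 ± 0.27 for ileum, and negative colonic cells -0.36 ± 0.16. Positive duodenal cells, at 0.19 ± 0.27, differed from the negative ones of their region by 0.08, which is less than their SD. In positive jejunal cells the value was -0.79 ± 0.67, so that mitosis genes were further reduced than replication genes, with a difference of -1.05 between positive and negative cells. The 3 positive jejunal libraries gave -0.94, -1.37 and -0.05 and the negative ones 0.40, 0.20 and 0.19, without overlap, and without positive replicate 3 the difference was -1.42. Ileal positive libraries, at 0.26, -0.29 and -0.70, overlapped the negative ones. In the colon positive cells, at -0.07 ± 0.10, were higher than negative ones by 0.29 in this measure, in contrast to the jejunum, with positive libraries at -0.18, -0.04 and 0.02 and negative at -0.40, -0.18 and -0.50, so that the lowest positive and the highest negative library were both at -0.18. Counted as reads, positive jejunal libraries held 0.502, 0.511 and 0.918 mitosis reads per replication read, and negative ones 1.61, 1.53 and 1.23. The colon went the other way without overlap, with 1.13, 1.24 and 1.20 mitosis reads per replication read in positive and 1.04, 1.08 and 0.696 in negative libraries. The groups overlapped in the duodenum (1.31, 1.51 and 1.04 against 1.30, 1.30 and 1.24) and in the ileum (1.49, 1.18 and 0.715 against 1.42, 1.79 and 1.14). In the positive jejunal libraries *Ccne2* alone gave 274, 130 and 140 of 989, 899 and 1062 replication reads. In the negative jejunal ones it gave 170, 172 and 274 of 4598, 5311 and 7668. All values in this paragraph are descriptions over the members and carry no test.

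**Figure D4:**
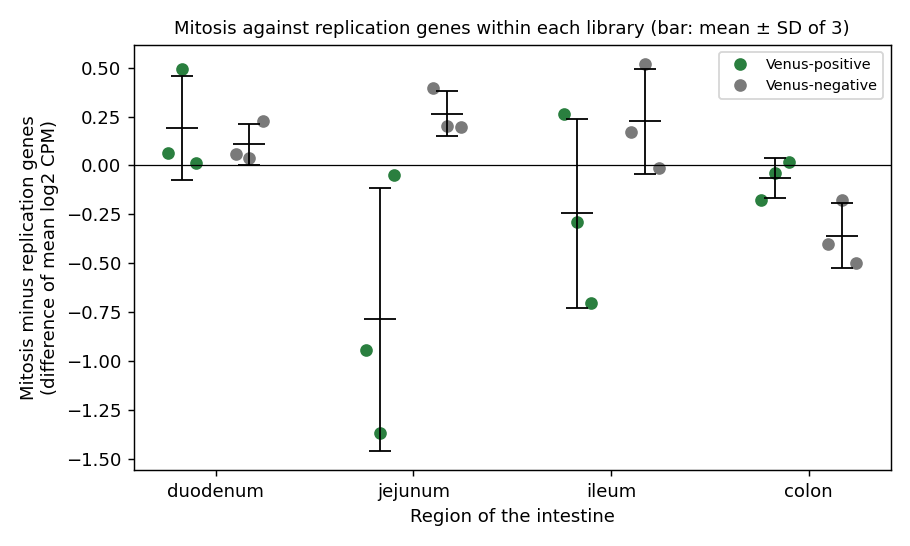
Mean log2 CPM of the mitosis genes minus that of the replication genes within each of the 24 libraries, by region and sort, with the mean and SD of each group of 3. The 3 positive jejunal libraries lie below all 3 negative jejunal libraries, and replicate 3 of them, at -0.05, lies well above the other two.

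The smaller depletion in duodenum and colon was then measured as the difference of the sort effect from the mean effect in jejunum and ileum. This difference was already known from earlier results of the same libraries, so the counts give its size and are not independent support for it. In the duodenum 35 of 56 genes passed with a difference above 0 and none with one below 0 (also none with DESeq2 or at an unadjusted p under 0.05). This is a smaller fall for all but *E2f2*, whose duodenal estimate was itself above 0. They were 13 replication and 22 mitosis genes, with a median difference of 2.05 on the log2 scale (edgeR interaction contrast; 9.60% of all genes tested were higher, with a median of 0.16). In the colon, where the estimate of *E2f2* was above 0 too, the number was 29, 11 replication and 18 mitosis genes, with a median of 1.98 (7.03% of all genes tested were higher, with a median of 0.33). The estimate lay above those of both jejunum and ileum for 52 genes in the duodenum, the exceptions being *Cdc6*, *Cdt1*, *Ccne1* and *Ccne2*, and for 53 in the colon, the exceptions being *Cdc6*, *Cdt1* and *Ccne2*. Both contrasts share the libraries of jejunum and ileum. The count for the duodenum was 26 without positive duodenal replicate 3 and 45 without positive jejunal replicate 3. The count for the colon was 17 without negative replicate 2, 16 without positive replicate 3 and 19 with scaling by library size alone.

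In the duodenum the calls came from the positive cells. Against the mean of positive jejunal and ileal cells, positive duodenal cells had 46 of 56 genes higher by edgeR, with a median of 1.84 (3.59-fold; 20.9% of all genes tested were higher, with a median of 0.11). The number was 34 without positive duodenal replicate 3. None was lower by edgeR or DESeq2 or at an unadjusted p under 0.05. Negative duodenal cells, against their counterparts, had none of 56 lower or higher by edgeR or by DESeq2, and none with an unadjusted p under 0.05, with a median of -0.16 (0.931% of all genes tested were lower and 1.41% higher). *Birc5* was 7.35-fold higher in positive duodenal cells (log2 2.88 ± 0.33; edgeR adjusted p = 1.02e-07), *Cdk1* 6.49-fold, *E2f8* 8.01-fold and *Mcm3* 5.09-fold. In the negative cells *Birc5* differed by 0.27 ± 0.32, *Cdk1* by 0.14 ± 0.33 and *Mcm3* by -0.07 ± 0.30. The 10 genes not called in positive cells included *Cdc6*, *Cdt1*, *Ccne1* and *Ccne2*, of which *Cdc6* and *Ccne2* had estimates below 0.

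The colon was compared in the same way. Positive colonic cells had 32 genes higher than the mean of jejunum and ileum, with a median of 1.17 over the 56 (21.1% of all genes tested were higher), and 1 gene, *Ccne2*, lower (-1.46 ± 0.42; edgeR adjusted p = 0.00671). Of these 32, 19 were mitosis genes, and the number was 19 of 56 without positive replicate 3 and 16 with scaling by library size alone. Negative colonic cells had 4 of 56 genes lower, a share near the 5.66% of all genes tested, namely *E2f2*, *Ube2c*, *Birc5* and *Prc1*, and none higher, with a median of -0.22 for the replication and -0.77 for the mitosis genes. The number was 7 without jejunum positive replicate 3, 1 without colon negative replicate 2, and 2 without colon negative replicate 1 or 3, colon positive replicate 2, jejunum negative replicate 1 or 3 or ileum negative replicate 2 or 3. It was 8 with the i5 index of the libraries as a covariate, and 12 genes had an unadjusted p under 0.05. *E2f2* was at 3.48, 4.39 and 2.38 CPM in negative colonic cells, against 6.91, 12.8 and 16.8 in jejunal and 10.9, 14.8 and 8.76 in ileal ones, without overlap (-1.79 ± 0.35; edgeR adjusted p = 0.000676). *Mcm3*, by contrast, was at 44.0, 39.6 and 39.9 CPM in negative colonic cells, the highest of the 4 regions, without passing the test (edgeR adjusted p = 0.525).

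**Figure D5:**
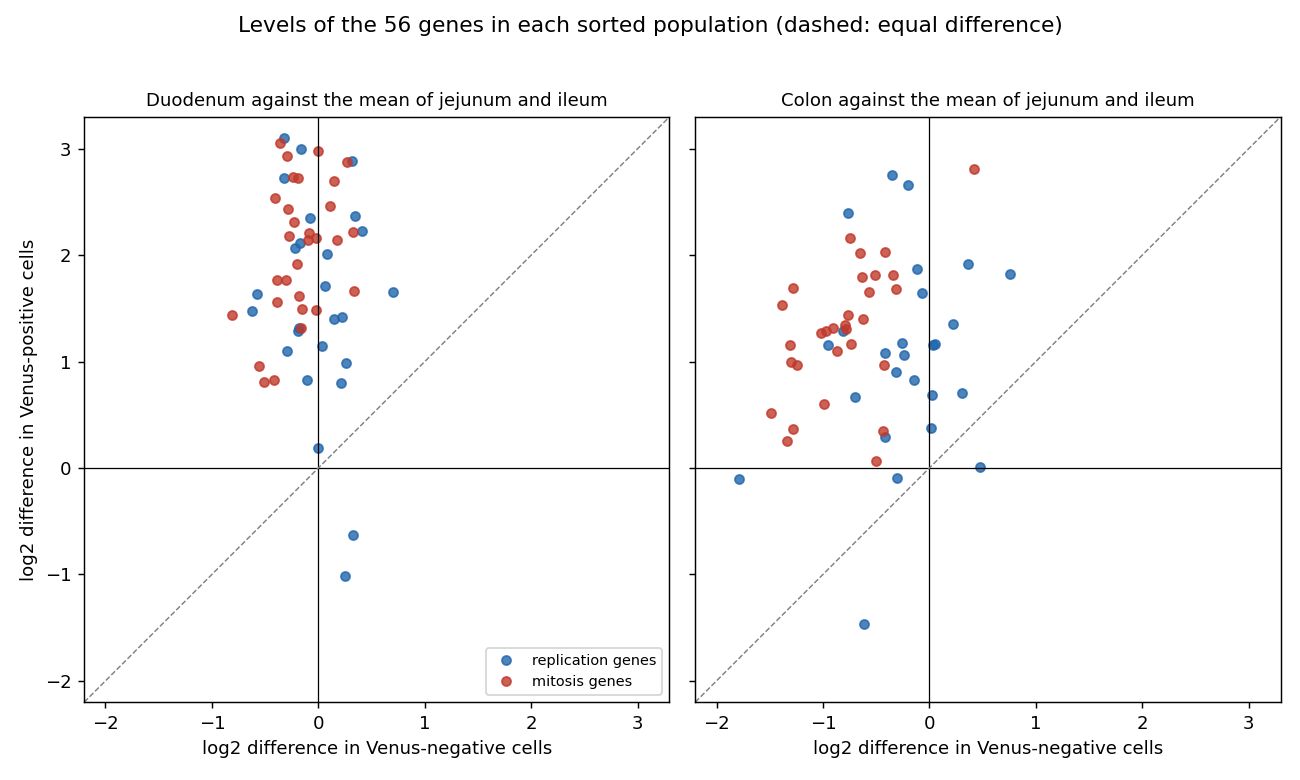
For each of the 56 genes, the log2 difference between the duodenum (left) or colon (right) and the mean of jejunum and ileum, in negative cells (horizontal axis) and in positive cells (vertical axis), with a dashed line where both are equal. In the duodenum the genes spread along the vertical axis about a median of 1.84 and stay within 1 of 0 on the horizontal one, whereas in the colon nearly all mitosis genes lie to the left of 0 in negative cells, with a median of -0.77.

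As shares of reads outside the mitochondrial genome, the 56 genes took 0.0751% in positive and 0.266% in negative duodenal cells, 0.0229% and 0.286% in jejunal, 0.0373% and 0.414% in ileal and 0.0845% and 0.254% in colonic cells. In this measure, which does not use TMM scaling, the lowest positive library of the duodenum, at 0.0539%, lay above the highest of the jejunum, at 0.0287%, and of the ileum, at 0.0485%, and so did all 3 of the colon, at 0.0824% or more. Negative libraries differed as well. Those of the duodenum (0.252% to 0.275%) and colon (0.213% to 0.282%) lay below all those of the ileum (0.354% to 0.459%). Both overlapped the negative libraries of the jejunum (0.269% to 0.302%).

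Markers of other cell types also differed between regions, but only some of them followed the replication and mitosis genes. In positive duodenal cells the crypt stem, goblet and Paneth sums lay above those of jejunum and ileum, whereas the enteroendocrine mean lay between theirs. In positive colonic cells the crypt stem sums lay within the range of the ileum, and goblet markers went both ways. Crypt stem markers (8 genes, among them *Lgr5*, *Olfm4* and *Ascl2*) summed to 576, 948 and 1131 CPM in positive duodenal, 84.8, 114 and 347 in jejunal, 311, 233 and 319 in ileal and 293, 284 and 274 in colonic libraries, and 6 of 8 were higher and 1 lower in positive duodenal cells than in the mean of jejunum and ileum, against 3 higher and 2 lower in positive colonic cells. Over all genes tested the shares lower in these contrasts were 15.4% (duodenum) and 14.5% (colon), beside the 20.9% and 21.1% higher. Positive jejunal replicate 3, the highest of its group for the mitosis genes, was also the highest for these markers. Goblet markers (8 genes) summed to 60457, 59336 and 53013 CPM in positive duodenal cells and to 1907 to 10089.8 CPM in the jejunum and ileum, with 8 of 8 higher in the duodenum, and Paneth markers (7 genes) to 37802, 52979 and 22160.0 against 5498, 1542 and 16124 CPM in the jejunum, with 6 higher and 1 lower. Enterocyte markers (10 genes) were at 2838, 2235 and 4829 CPM in positive duodenal and 31271, 26398 and 30366 CPM in positive jejunal cells, with 7 lower and 1 higher in the duodenum. In positive colonic cells Paneth markers summed to 163, 267 and 109.7 CPM and enterocyte markers to 607, 669 and 792 CPM, with 10 of 10 of the latter lower than in jejunum and ileum. The same libraries held 1696, 1538 and 1500.2 CPM of colonocyte markers (5 genes), against at most 59.7 in positive jejunal and 128, 95.3 and 87.2 in positive ileal ones, with 5 of 5 higher, and 4774, 4068 and 4978 CPM of goblet markers, with 3 of 8 higher and 3 lower. In negative cells crypt stem markers summed to 492, 401 and 482 CPM in the colon against 1902, 1625 and 2627 in the jejunum and 2344, 1227 and 4052 in the ileum. By the test 1 of these 8 was lower in negative colonic cells than in the mean of both, and none was higher. Goblet markers were at 1136, 1848 and 926 CPM in negative colonic cells, against 335, 455 and 296 (jejunum) and 306, 365 and 389 (ileum), with 6 of 8 higher, against 4.34% of all genes tested. Enteroendocrine markers (8 genes) averaged 207 CPM in positive colonic cells, against 35.0 (duodenum), 41.7 (jejunum) and 32.3 (ileum). In negative cells they averaged 1202, 1113, 376 and 668 CPM from duodenum to colon. Tuft markers (5 genes) averaged 9.43, 3.99, 3.62 and 14.2 CPM in positive cells and 27.6, 29.3, 35.0 and 33.8 CPM in negative cells, in the same order. Of the crypt stem, goblet, Paneth and enterocyte markers, *Ascl2* in the jejunum was the one at 3 counts or less in every positive library of a region. Lymphocyte markers, whose cells also divide, summed to at most 14.9 CPM and stromal and endothelial markers to at most 16.1 CPM in any library, and in the positive groups 1 to 5 of 8 lymphocyte and 4 to 6 of 7 stromal markers were at 3 counts or less throughout. Depth and the mitochondrial share differed too, with 7458616 to 11165593 reads on genes and 32.3% to 46.6% mitochondrial in positive duodenal libraries, 10634367 to 18878119 and 41.0% to 60.6% in positive jejunal and ileal ones, and 68.6% to 77.9% mitochondrial in positive colonic ones. In negative libraries the mitochondrial share was 64.6% to 76.4% (duodenum), 61.2% to 78.8% (jejunum), 64.7% to 70.9% (ileum) and 65.3% to 80.7% (colon). It thus lay above that of the positive libraries in each region of the small intestine and overlapped it in the colon. The part of these cell types, of depth and of the mitochondrial share in the results was not tested.

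Other genes of the same processes, 55 of replication and 62 of mitosis, were counted the same way. Of the replication genes 23, 49, 50 and 23 were lower in duodenum, jejunum, ileum and colon, with medians of -1.18, -2.94, -2.41 and -1.32. Of the mitosis genes 13, 57, 54 and 11 were lower, with medians of -1.16, -3.34, -2.84 and -1.14. Among all genes tested, 8.08%, 25.6%, 20.6% and 3.80% were lower in the same order, and 8.88% were higher in the duodenum. *Cdc25c*, the phosphatase that activates *Cdk1*, and *Troap* were not counted in any of the 3 positive jejunal libraries, against means of 1.93 and 1.78 CPM in negative cells, and with both set at the bound the floor gives, the jejunal median of the mitosis genes was -3.32. In the duodenum 1 gene of each list was higher, *Rfc1* of the clamp loader (1.63 ± 0.36; edgeR adjusted p = 0.00217) and *Cdc25b*, another activator of *Cdk1* (2.01 ± 0.45; edgeR adjusted p = 0.00254).

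Of 26 genes of G1 and of the exit from the cycle that could be tested, 2 were lower and 3 higher in duodenal, 8 and 7 in jejunal, 7 and 8 in ileal and 1 and 5 in colonic cells. Among all genes tested, 8.08% were lower and 8.88% higher in duodenal, 25.6% and 18.3% in jejunal, 20.6% and 17.9% in ileal and 3.80% and 9.31% in colonic cells. *Cdkn1a* (p21), an inhibitor of cyclin-dependent kinases, and *Rb1*, the pocket protein that restrains E2F, rose in all 4 regions. *Cdkn1a* averaged 34.2 ± 2.75 CPM (SD, n = 3) in positive and 12.3 ± 3.35 CPM in negative duodenal cells (1.48 ± 0.31; edgeR adjusted p = 0.00134), and in the ileum 57.7 ± 11.4 and 7.62 ± 0.409 CPM (2.92 ± 0.32; edgeR adjusted p = 8.53e-08). *Rb1* rose by 1.11, 1.74, 1.54 and 1.81 on the log2 scale from duodenum to colon. The D cyclin *Ccnd1* and its kinases *Cdk4* and *Cdk6*, which release E2F, were lower in jejunum (-3.62, -3.48 and -2.94). *Ccng2*, a cyclin linked to arrest, was higher in jejunum and ileum (2.95 and 3.11) and in the colon (2.33) but was at 14.4 ± 1.87 against 10.6 ± 3.03 CPM in the duodenum (edgeR adjusted p = 0.475).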

How the data were processed

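Sorted cells were lysed, and 10 ng of total RNA per sample went through the SMARTer stranded pico kit and single-end sequencing of 50 bases. The deposited table holds raw counts of reads per gene; the submitters' processing notes name CASAVA, STAR 2.5.1 and GRCm38, and the study's methods name STAR for the counting, while its strand setting and the gene annotation are not given in the sources used here. Lines of unassigned reads (4; 39.4% to 75.8% of listed reads) were left out. Symbols, positions and exon lengths came from GENCODE M21, which held 53360 of 53465 genes. In R 4.3.3, counts were filtered with filterByExpr (edgeR 4.0.16), scaled by TMM and fitted over all 24 libraries with 1 coefficient per group. Contrasts were tested with the two-sided quasi-likelihood test and Benjamini-Hochberg adjustment over 15044 genes (threshold 0.05); fold changes are positive over negative cells, and regional contrasts set duodenum or colon against the mean of jejunum and ileum. ± after a log2 change is the SE. Scripts were tested on simulated data. Alternatives were DESeq2 1.42.0, other scalings and filters, the i5 index as a covariate, the region's libraries alone, a threshold of 0.01 and each library left out. The members, the other gene lists and the printed promoters were chosen with earlier results of these data known, the promoters after their words had been counted; named genes were the members, plus the other listed genes with the largest changes or changes in all regions.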

Additional observations from a re-analysis of the deposited data

Results flagged for a closer look

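Genes were singled out where the sort difference in the duodenum or in the colon differed from the mean of the jejunum and ileum by the edgeR interaction test; each value is that difference on the log2 scale, and all were above 0, which is a smaller fall except for *E2f2*, whose estimates in duodenum and colon were themselves above 0 (0.30 and 0.34). Both comparisons use the same jejunal and ileal libraries.

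In the duodenum the replication genes were *Mcm2* at 2.29, *Mcm3* at 2.42, *Mcm4* at 1.50, *Mcm5* at 1.93, *Mcm6* at 1.47, *Rrm1* at 2.28, *Rrm2* at 2.57, *Tyms* at 2.03, *Uhrf1* at 3.43, *Hells* at 2.21, *E2f2* at 1.64, *E2f8* at 3.17 and *Cdk2* at 2.10. The mitosis genes were *Ccna2* at 2.30, *Ccnb2* at 1.89, *Cdk1* at 2.55, *Foxm1* at 2.25, *Aurka* at 1.96, *Aurkb* at 3.41, *Bub1b* at 2.12, *Melk* at 2.72, *Cdc20* at 3.24, *Ube2c* at 2.98, *Cenpa* at 2.35, *Cenpf* at 2.25, *Birc5* at 2.61, *Kif23* at 1.32, *Kif20a* at 2.46, *Tpx2* at 2.94, *Prc1* at 1.51, *Hmmr* at 2.19, *Ect2* at 1.48, *Racgap1* at 2.92, *Top2a* at 2.54 and *Mki67* at 1.95.

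In the colon the replication genes were *Mcm2* at 1.71, *Mcm3* at 1.56, *Gins1* at 3.10, *Rrm1* at 1.43, *Rrm2* at 2.10, *Tyms* at 1.98, *Tk1* at 2.10, *Uhrf1* at 2.86, *E2f2* at 1.68, *E2f8* at 3.16 and *Cdk2* at 1.50. The mitosis genes were *Ccna2* at 2.27, *Ccnb2* at 2.22, *Cdk1* at 2.29, *Foxm1* at 2.44, *Bub1b* at 2.03, *Cdc20* at 2.97, *Ube2c* at 2.92, *Cenpa* at 2.09, *Cenpe* at 2.32, *Cenpf* at 2.68, *Birc5* at 2.47, *Tpx2* at 2.91, *Nusap1* at 2.20, *Prc1* at 1.59, *Hmmr* at 2.42, *Racgap1* at 2.22, *Top2a* at 1.97 and *Mki67* at 2.16.

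*Gins1* and *Aurkb* rest on positive jejunal libraries with few or no counts, so that their fitted values depend on the prior count. The same limit applies to *Rrm2* and *Hmmr*, each with a positive jejunal library at 0 CPM. *Cdc20* had a positive ileal library at 0 CPM. *E2f8*, *Tpx2*, *Aurka*, *Cdc20*, *Cenpa* and *Kif20a* each had a positive jejunal library under the floor, and *Kif20a* had a positive ileal one under it too. Single libraries of the groups of 3 were not tested for standing apart.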

How the results depend on the processing

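Counts of genes are given against the value reported first. At an adjusted p under 0.01, the genes lower in the duodenum numbered 6 (replication; 15) and 2 (mitosis; 8), the mitosis genes lower in the colon 4 (10), those with a smaller fall 21 in the duodenum (35) and 11 in the colon (29), and those lower in negative colonic cells 1 (4). Library size alone gave 3 and 2 in the duodenum, 19 with a smaller fall in the colon and 16 higher in positive colonic cells (32). Requiring 10 counts in every library kept 25 genes, of which 22 were lower in the colon (25 of 56) and 16 in the duodenum (23 of 56), and fewer genes tested lowered the counts: replication 14 and 15 of 16 in jejunum and ileum, mitosis 9 of 9 in both, 11 of 16 and 5 of 9 in the duodenum, 13 of 16 and 9 of 9 in the colon, a smaller fall in 21 (duodenum) and 14 (colon), higher in positive cells 23 (duodenum) and 19 (colon), and lower in negative colonic cells 2. That last count was also 2 with RLE scaling or with nuclear protein-coding genes alone, and 8 with the i5 index as a covariate, which gave 30 genes lower in the duodenum (23) and 27 in the colon (25) and kept the other counts within 1.5 times. DESeq2 gave 17 mitosis genes in the colon, and the duodenal libraries alone 16. *Cdk2* in the duodenum (-0.02) turned to 0.0182 with DESeq2, 0.0178 with RLE, 0.41 by library size, 0.0547 without filter, 0.0466 with nuclear protein-coding genes and 0.0408 with the region alone, and *Ccne2* in the jejunum (-0.21) to 0.12 by library size. Scaling by library size moved the median of all genes from -0.16 to 0.27 in the duodenum and from -0.28 to 0.02 in the jejunum. The turns by library size therefore come with a shift of all genes and say nothing of these 2 genes in particular. Each library left out in turn gave 5 to 19 replication and 4 to 12 mitosis genes in the duodenum, 22 to 23 and 30 to 30 in the jejunum, 22 to 25 and 29 to 30 in the ileum, 12 to 17 and 3 to 13 in the colon, a smaller fall in 25 to 45 (duodenum) and 16 to 40 (colon), higher in positive cells 34 to 49 and 19 to 40, and lower in negative colonic cells 1 to 7. It turned *Cdk2* in the duodenum (-0.15 to 0.0575) and *Ccne2* in the jejunum (-0.63 to 0.11). The cause of these other changes was not tested. No paired analysis was run, because the labels tie no library to a mouse. Libraries that come from the same mouse were therefore treated as independent.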
